A study of Arabidopsis thaliana with 9 samples.

Results

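The genes described here are 36 Arabidopsis thaliana loci of the jasmonate pathway, taken by locus identifier out of 32833 genes counted. They comprise 11 genes of hormone synthesis, the lipoxygenase gene LOX1, the conjugating enzyme gene JAR1, the receptor gene COI1, 12 repressor genes (JAZ1 to JAZ12), the adaptor gene NINJA, 3 activator genes (MYC2, MYC3 and MYC4), the response genes VSP1 and VSP2, and 4 genes of hormone turnover or modification. The rule names them by what they encode, not by a measured value. Enough reads for a test were present for 30 of the 36. The other 6, which are DAD1, JAZ4, JAZ7, JAZ8, CYP94B3 and ST2A, are given as read counts.

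Jasmonates are lipid hormones that plants make in response to wounding, insects and some pathogens, and during flower maturation. Lipoxygenases (LOX), allene oxide synthase (AOS) and allene oxide cyclases (AOC) act in plastids, and the OPDA reductase OPR3 and beta-oxidation act in peroxisomes, to turn a fatty acid into jasmonic acid, which JAR1 joins to isoleucine. The conjugate brings COI1 together with the JAZ proteins, which are then degraded, and this frees MYC factors that JAZ and NINJA otherwise hold inactive. Many JAZ genes and turnover genes are themselves switched on by MYC factors, so their RNA is widely used as a readout of recent jasmonate signalling.

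RNA was sequenced from seedlings of 3 genotypes with 3 samples each. Col-0 is the wild type. The 35S:CO seedlings express the flowering regulator CONSTANS (CO) from the viral 35S promoter, known to work in nearly every plant tissue. Those of SUC2:CO express CO with an HA tag from the SUC2 promoter, known for its activity in the companion cells of the phloem, and also carry co-10, an allele of the endogenous CO gene. No other genotype is labelled as carrying co-10. All seedlings carry the Col-0 background label, grew in soil at 22 °C in long days (light for 16 h, dark for 8 h), and were taken 7 days after germination at zeitgeber time 14, which is 14 h after lights-on. The number of independent transgenic lines and of plants per sample is not given in the sources used here, so the p-values measure the spread between these samples, which may be technical in part. The labels name no treatment other than long days, and each genotype was seen at a single time of day.

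Library totals lay between 25563118 and 26636174 reads. Levels are given as CPM, a gene's reads per 1000000 reads of the scaled library, in the order of replicates 1, 2 and 3. CO itself was measured at 9.54, 10.1 and 7.97 CPM in Col-0, 576, 658 and 676 CPM in 35S:CO and 48.6, 50.9 and 60.3 CPM in SUC2:CO. The transgene labels and the CO reads therefore went together in all 9 libraries, with no overlap between genotypes. Photosynthesis genes were abundant, with 4 leaf markers summing to between 41835 and 60758 CPM per library. One of them, the antenna gene LHCB2.1, was at 169, 168 and 163 CPM in Col-0, 1276, 1117 and 817 CPM in 35S:CO and 344, 581 and 488 CPM in SUC2:CO, and rose by 2.68 ± 0.21 log2 units (SE, adjusted p 2.4e-05 by edgeR) in 35S:CO and by 1.4956 ± 0.20 log2 units (SE, adjusted p 0.00074 by edgeR) in SUC2:CO. Its part in the jasmonate results was not tested. The other 3 leaf markers passed in neither line, and the median log2 change of the 4 was -0.14 in each line. Root markers summed to at most 1.17 CPM in any library, and EXPA7 had no reads, so defining root markers were at or near 0 although the samples are labelled as seedlings. Of 6 floral markers, SEP1 was tested and exceeded its wild-type level by 3.57 ± 0.34 log2 units (SE, adjusted p 9.6e-05 by edgeR) in 35S:CO and by 1.71 ± 0.35 log2 units (SE, adjusted p 0.0051 by edgeR) in SUC2:CO. The 6 together summed to 0.378 to 1.01 CPM in Col-0, 7.22 to 9.14 CPM in 35S:CO and 2.22 to 3.55 CPM in SUC2:CO, with AP1 and AP3 at 0 reads in Col-0. SEP1 made up most of these sums, with means of 7.68 CPM in 35S:CO and 2.11 CPM in SUC2:CO. The other floral markers had too few reads to test. The part of the floral markers in the jasmonate results was not tested.

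In 35S:CO, jasmonate genes moved in opposite directions within the same pathway. JAZ9, JMT, MYC4 and VSP2 rose, by 1.59 to 2.94 on the log2 scale, whereas JAZ1, JAZ5, JAZ6, CYP94C1, OPR3 and LOX3 fell. Of the 30 tested members, 10 (33.3%) changed against Col-0, at an adjusted p under 0.05 by edgeR's quasi-likelihood test, 4 being higher and 6 lower. Of all 19149 tested genes, 11.8% changed, 6.32% being higher and 5.48% lower. In SUC2:CO, 14 members (46.7%) changed, 9 higher and 5 lower, where 32.3% of all tested genes changed, 15.5% higher and 16.8% lower. There 5 of the 9 rises were in synthesis genes and all 9 lay between 0.53 and 0.78 on the log2 scale, and the falls were in JAZ1, JAZ2, JAZ5, JAZ10 and LOX1. Both comparisons use the same Col-0 libraries. Between the lines themselves, 15 members differed, 5 higher and 10 lower in 35S:CO, where 18.8% of all tested genes differed, 9.27% higher and 9.5% lower. Without SUC2:CO replicate 1, 2 or 3, the last count was 8, 9 and 9. None of these counts paired samples by replicate number. With that number as a block in a model of 35S:CO and Col-0 alone, 13 members changed, 5 higher and 8 lower. Without the block, the same model called 7, 4 higher and 3 lower, and JAZ1, OPR3 and CYP94C1 lost their calls. The share of all genes called by that model is not given here.

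**Figure D1:**
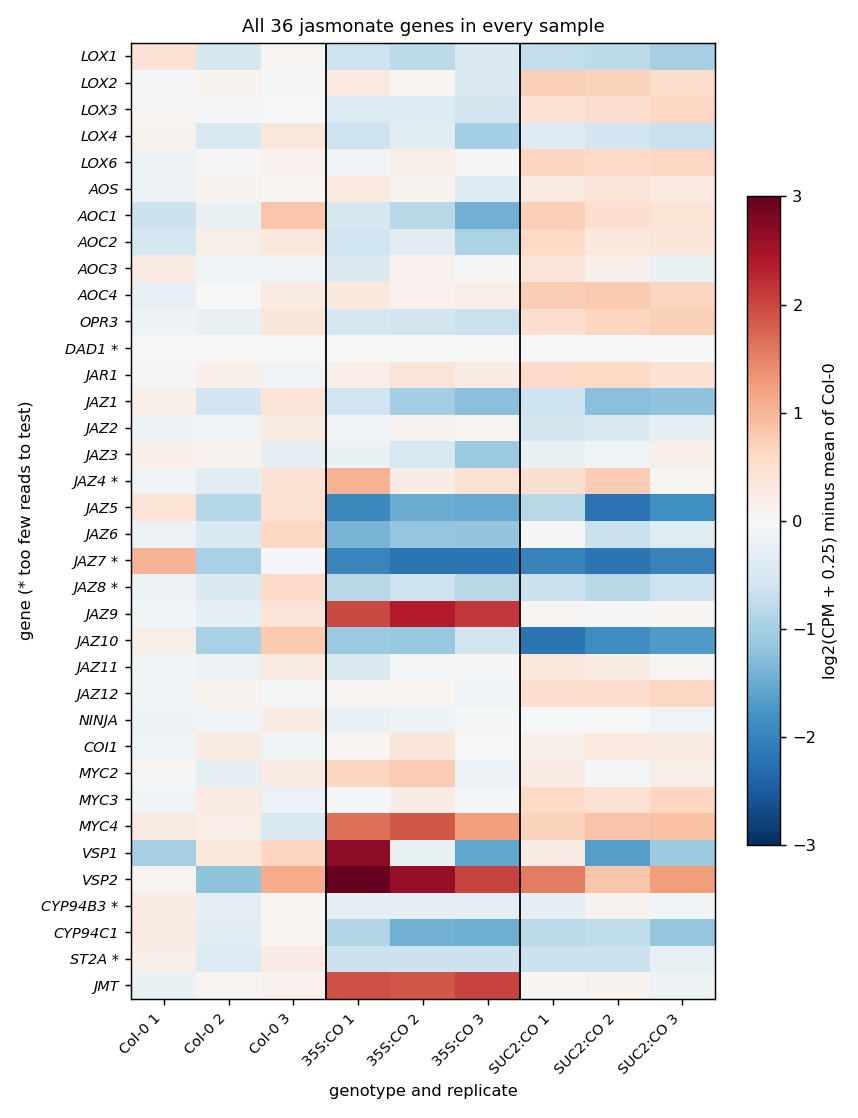
Level of each of the 36 jasmonate genes (rows) in each of the 9 samples (columns), as log2(CPM + 0.25) minus the mean of the Col-0 samples; colours are capped at 3 log2 units either way, and an asterisk marks the 6 genes with too few reads to test. JAZ9, JMT, MYC4 and VSP2 are red in all 3 samples of 35S:CO, the synthesis genes from LOX2 to OPR3 are mostly pale red in SUC2:CO, and JAZ1, JAZ5, JAZ7 and JAZ10 are blue in both lines.

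The median log2 change of the 30 tested members was -0.07 in 35S:CO and 0.17 in SUC2:CO, against -0.04 and -0.02 over all tested genes. These medians mix changes in both directions. A list of genes chosen as responsive to touch or handling summed to 50.3 to 51.7 CPM in Col-0, 75.2 to 98.5 CPM in 35S:CO and 46.5 to 53.9 CPM in SUC2:CO. Of its 6 tested genes, the calmodulin-like gene TCH3 rose by 1.17 ± 0.16 log2 units (SE, adjusted p 0.00086 by edgeR) in 35S:CO and by 0.46 ± 0.16 log2 units (SE, adjusted p 0.046 by edgeR) in SUC2:CO, and the wall-enzyme gene TCH4 fell in SUC2:CO by a log2 change of -1.56 ± 0.50 (SE, adjusted p 0.038 by edgeR). The calls in SUC2:CO were lost without any single SUC2:CO library or Col-0 replicate 1, and that of TCH3 also without Col-0 replicate 2 or 35S:CO replicate 2 (edgeR adjusted p 0.067 to 0.14). TCH3 had the highest mean of the listed genes in each genotype, at 21.3 CPM in Col-0, 48.0 CPM in 35S:CO and 29.3 CPM in SUC2:CO. TCH2, the next highest, had means of 17.3, 19.1 and 11.6 CPM. In 35S:CO no tested gene of the list other than TCH3 passed against Col-0, so the sum there does not describe the list as a whole. The part of handling in the results below was not tested. In such bulk samples, a lower level in every cell and a smaller share of the cells that express a gene cannot be told apart.

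**Figure D2:**
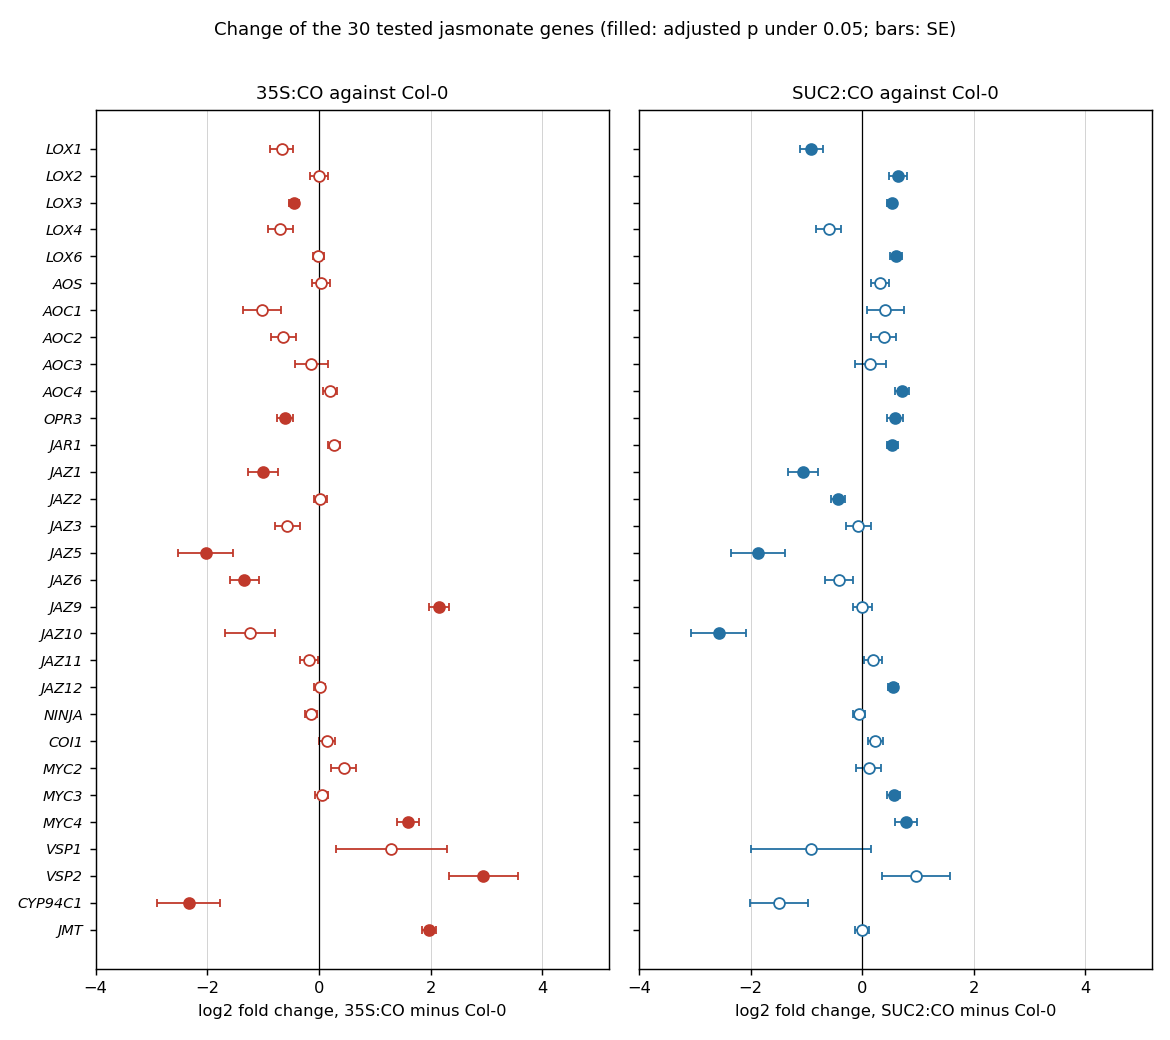
Log2 fold change against Col-0 (x axis) of the 30 tested jasmonate genes (y axis, in pathway order) for 35S:CO on the left and SUC2:CO on the right; points are the fitted change, bars its SE, and filled points passed an adjusted p under 0.05. JAZ9 and JMT lie near 2 in 35S:CO and at 0 in SUC2:CO, and LOX3 and OPR3 lie on opposite sides of 0.

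LOX1 (AT1G55020) and the 11 synthesis genes were described together, and 11 of these 12 were tested. Against Col-0, 2 fell in 35S:CO, LOX3 (AT1G17420) and OPR3 (AT2G06050), where 5.48% of all tested genes fell. In SUC2:CO 5 rose, where 15.5% of all tested genes rose. The only one that fell there was LOX1, which is not on the route to jasmonate, and 16.8% of all tested genes fell. Between the lines 7 differed, all lower in 35S:CO, where 9.5% of all tested genes were lower. In wild type, the plastid enzymes dominated per unit of exon length, with 637 CPM per kb for LOX2 (AT3G45140), 485 for AOC2 (AT3G25770) and 226 for AOS (AT5G42650). LOX2 encodes the lipoxygenase that supplies much of the jasmonate of wounded leaves. It was at 1982, 2227 and 2005 CPM in Col-0, 2532, 2151 and 1534 CPM in 35S:CO and 3384, 3267 and 3053 CPM in SUC2:CO. The SUC2:CO samples were the highest, and those of 35S:CO spread across the wild-type range. LOX2 rose in SUC2:CO by 0.64 ± 0.17 log2 units (SE, adjusted p 0.016 by edgeR). That call was lost without Col-0 replicate 1 (edgeR adjusted p 0.058) or SUC2:CO replicate 1 (edgeR adjusted p 0.050), although the log2 change stayed at 0.61 in both. Between the lines LOX2 was lower in 35S:CO by a log2 change of -0.64 ± 0.17 (SE, adjusted p 0.026 by edgeR), a call lost without 35S:CO replicate 2 or 3 or SUC2:CO replicate 1, 2 or 3 (edgeR adjusted p 0.053 to 0.077).

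LOX3 encodes a lipoxygenase that acts with its close relative LOX4 (AT1G72520). LOX3 was at 29.2, 27.8 and 29.1 CPM in Col-0, 21.4, 21.9 and 19.6 CPM in 35S:CO and 39.0, 41.1 and 44.0 CPM in SUC2:CO. The 3 genotypes formed separate, narrow bands, with 35S:CO lowest and SUC2:CO highest. LOX3 fell in 35S:CO by a log2 change of -0.45 ± 0.09 (SE, adjusted p 0.0080 by edgeR) and rose in SUC2:CO by 0.53 ± 0.09 log2 units (SE, adjusted p 0.0017 by edgeR). These calls held with every one of the 9 libraries left out in turn. Between the lines LOX3 was lower in 35S:CO, with a log2 difference of -0.98 ± 0.09 (SE, adjusted p 6.4e-05 by edgeR). LOX6 (AT1G67560), a lipoxygenase gene with a known role in the xylem and in roots, was at 25.8, 29.5 and 31.5 CPM in Col-0, 26.2, 32.3 and 27.7 CPM in 35S:CO and 45.5, 42.8 and 44.1 CPM in SUC2:CO. It rose in SUC2:CO by 0.61 ± 0.11 log2 units (SE, adjusted p 0.0024 by edgeR), and 35S:CO overlapped wild type.

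LOX4 differed in neither line at the threshold, with log2 changes of -0.69 ± 0.22 (SE, adjusted p 0.073 by edgeR) in 35S:CO and -0.60 ± 0.22 (SE, adjusted p 0.064 by edgeR) in SUC2:CO. Its samples lay between 5.47 and 14.5 CPM. Without Col-0 replicate 2 LOX4 passed in both lines (edgeR adjusted p 0.023 and 0.012), as it did in SUC2:CO without 35S:CO replicate 3 (edgeR adjusted p 0.044). LOX1 encodes a lipoxygenase that oxygenates a different carbon. Its level was 19.0, 9.72 and 14.7 CPM in Col-0, 9.07, 8.05 and 10.2 CPM in 35S:CO and 8.32, 7.95 and 6.93 CPM in SUC2:CO. All 3 SUC2:CO samples lay under the lowest of wild type, and LOX1 fell there by a log2 change of -0.91 ± 0.21 (SE, adjusted p 0.0100 by edgeR), a call lost without SUC2:CO replicate 3 (edgeR adjusted p 0.051). In 35S:CO the log2 change was -0.67 ± 0.21 (SE, adjusted p 0.067 by edgeR), and with the replicate number as a block it passed (edgeR adjusted p 0.045), as it did without Col-0 replicate 2 (edgeR adjusted p 0.0095). The LOX1 locus overlaps a gene on the opposite strand, and the strand setting of the counting is not given in the sources used here.

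Allene oxide cyclase is encoded by AOC1 (AT3G25760) to AOC4 (AT1G13280), of which AOC1, AOC2 and AOC3 (AT3G25780) are related neighbours on chromosome 3, so the counting could mix their reads and each value is uncertain. AOC1 was at 43.9, 59.7 and 122 CPM in Col-0, 47.7, 38.5 and 24.9 CPM in 35S:CO and 113, 96.8 and 90.3 CPM in SUC2:CO. AOC2 was at 426, 693 and 771 CPM in Col-0, 404, 494 and 316 CPM in 35S:CO and 924, 766 and 780.5 CPM in SUC2:CO. For both genes the lines did not overlap each other, and wild type spanned the gap between them. Neither gene passed against Col-0, with AOC1 log2 changes of -1.02 ± 0.34 (SE, adjusted p 0.079 by edgeR) in 35S:CO and 0.41 ± 0.33 (SE, adjusted p 0.37 by edgeR) in SUC2:CO. Between the lines, AOC1 was lower in 35S:CO by a log2 change of -1.44 ± 0.34 (SE, adjusted p 0.017 by edgeR) and AOC2 by a log2 change of -1.02 ± 0.22 (SE, adjusted p 0.011 by edgeR). The AOC1 difference was lost without 35S:CO replicate 3 or without SUC2:CO replicate 1, 2 or 3 (edgeR adjusted p 0.053 in each), while AOC2 kept its call with each library left out. Without Col-0 replicate 1, both fell in 35S:CO against Col-0 (edgeR adjusted p 0.031 for AOC1 and 0.019 for AOC2), and without Col-0 replicate 3 AOC1 rose in SUC2:CO (edgeR adjusted p 0.019). AOC3 was scarce, from 1.07 to 2.08 CPM, and no comparison passed.

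AOC4 lies on chromosome 1, away from the others, and was at 24.3, 28.9 and 34.2 CPM in Col-0, 35.9, 31.7 and 32.6 CPM in 35S:CO and 48.1, 50.1 and 45.5 CPM in SUC2:CO. It rose in SUC2:CO by 0.72 ± 0.12 log2 units (SE, adjusted p 0.0020 by edgeR), and 35S:CO overlapped wild type. Between the lines it was lower in 35S:CO by a log2 change of -0.52 ± 0.12 (SE, adjusted p 0.015 by edgeR), a call lost without 35S:CO replicate 2 or SUC2:CO replicate 2 or 3 (edgeR adjusted p 0.063 to 0.083). AOS, a single gene for the enzyme that commits the lipoxygenase product to jasmonate, was at 351 to 601 CPM in all samples. It differed in no comparison. In SUC2:CO its log2 change was 0.32 ± 0.16 (SE, adjusted p 0.15 by edgeR).

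OPR3 encodes the reductase that acts on the intermediate OPDA. It was at 33.6, 32.1 and 48.3 CPM in Col-0, 25.9, 25.6 and 23.4 CPM in 35S:CO and 51.9, 58.1 and 61.3 CPM in SUC2:CO. As with LOX3, all 35S:CO samples were lowest and all SUC2:CO samples highest. OPR3 fell in 35S:CO by a log2 change of -0.61 ± 0.15 (SE, adjusted p 0.026 by edgeR) and rose in SUC2:CO by 0.59 ± 0.15 log2 units (SE, adjusted p 0.013 by edgeR). The difference between the lines, -1.19 ± 0.15 log2 units (SE, adjusted p 0.00058 by edgeR) for 35S:CO minus SUC2:CO, held with each library left out. The fall against Col-0 was lost without 35S:CO replicate 1, 2 or 3 or SUC2:CO replicate 2 or 3 (edgeR adjusted p 0.059 to 0.11). The rise was lost without Col-0 replicate 1 or SUC2:CO replicate 2 or 3 (edgeR adjusted p 0.050 to 0.066).

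**Figure D3:**
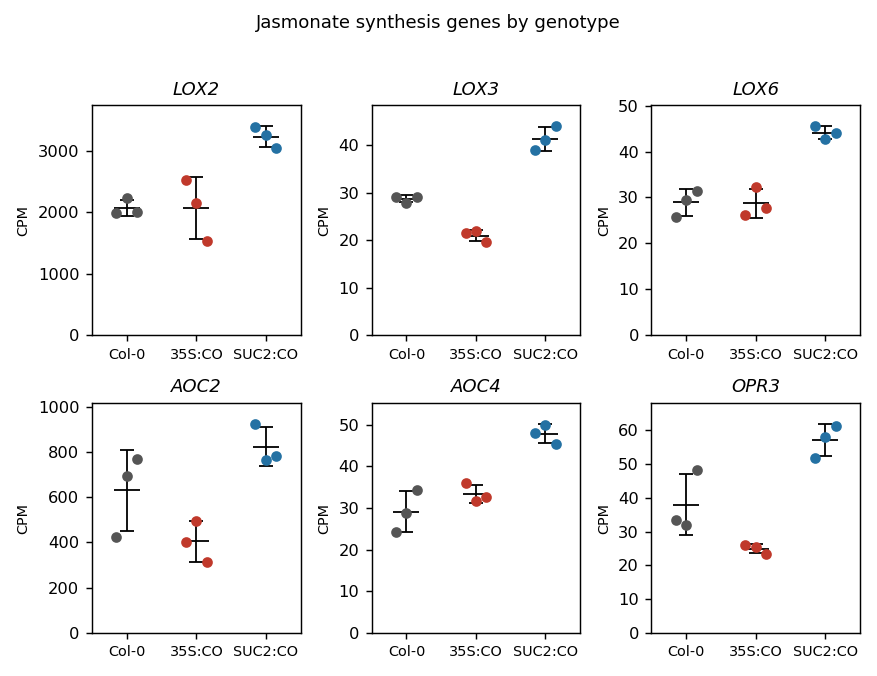
CPM (y axis, from 0) of 6 synthesis genes in the 3 samples of each genotype (dots), with the mean and SD (bars). The SUC2:CO samples of LOX2, LOX3, LOX6, AOC4 and OPR3 lie above every Col-0 sample, and the 35S:CO samples of LOX3 and OPR3 lie below.

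DAD1 (AT2G44810), a lipase gene known for jasmonate synthesis in anthers, had 0 reads in every library. Such a count allows a level of up to 0.104 to 0.125 CPM, depending on the library, for counting error only. JAR1 (AT2G46370) encodes the enzyme that forms the active isoleucine conjugate, and was at 58.6, 67.3 and 55.8 CPM in Col-0, 69.5, 79.3 and 70.5 CPM in 35S:CO and 90.2, 92.0 and 81.7 CPM in SUC2:CO. It rose in SUC2:CO by 0.54 ± 0.10 log2 units (SE, adjusted p 0.0034 by edgeR). In 35S:CO the log2 change was 0.27 ± 0.10 (SE, adjusted p 0.11 by edgeR), although all 3 samples were above wild type, and it passed without Col-0 replicate 2 (edgeR adjusted p 0.039). It also passed with the replicate number as a block in a model of 35S:CO and Col-0 alone (edgeR adjusted p 0.040).

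The receptor gene COI1 (AT2G39940) was at 21.6, 28.5 and 21.7 CPM in Col-0, 24.8, 30.7 and 23.7 CPM in 35S:CO and 26.4, 29.4 and 28.9 CPM in SUC2:CO. The genotypes overlapped, and the log2 change was 0.24 ± 0.14 (SE, adjusted p 0.21 by edgeR) in SUC2:CO. It passed there only without Col-0 replicate 2 (0.37 log2 units, edgeR adjusted p 0.042). COI1 overlaps a gene on the opposite strand. NINJA (AT4G28910), which links JAZ proteins to a co-repressor, was at 51.8 to 70.6 CPM over all samples and passed in no comparison.

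JAZ9 (AT1G70700) had the smallest adjusted p of the repressor genes, and its rise was in 35S:CO. Its level was 47.5, 41.1 and 66.6 CPM in Col-0, 202, 265 and 221 CPM in 35S:CO and 53.5, 49.3 and 52.5 CPM in SUC2:CO. The 35S:CO samples were far above the other 6, and the SUC2:CO samples sat inside the wild-type range. JAZ9 rose in 35S:CO by 2.15 ± 0.17 log2 units (SE, adjusted p 2.9e-05 by edgeR), and it was higher in level than SUC2:CO, by 2.15 ± 0.17 log2 units (SE, adjusted p 3.7e-05 by edgeR). Both calls held in all 18 other settings. Per kb of exon, JAZ9 reached 124 CPM in 35S:CO against 27.9 in Col-0, and so passed JAZ12 (AT5G20900), at 45.4 in 35S:CO and 45.1 in Col-0, which was the most abundant JAZ gene in wild type.

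The promoters of the members that rose in 35S:CO are shown because CO is itself a DNA-binding protein. The first is the stretch of 250 bases before the annotated start of JAZ9 on chromosome 1 (chr1:26654279-26654528, plus strand), read 5′ to 3′ from the TAIR10.1 assembly with RefSeq gene starts. Capitals mark CCACA or its reverse complement TGTGG, the core of an element that CO is known to bind, and CACGTG, the G-box that MYC factors bind.
JAZ9: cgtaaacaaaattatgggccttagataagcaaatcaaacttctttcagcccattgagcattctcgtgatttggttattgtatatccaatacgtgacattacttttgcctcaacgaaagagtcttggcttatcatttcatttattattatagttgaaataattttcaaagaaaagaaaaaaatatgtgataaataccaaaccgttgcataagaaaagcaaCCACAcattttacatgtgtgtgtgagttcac
The JAZ9 window held CCACA beginning 31 bases before the start. Over all 27443 protein-coding genes, 28.4% of such windows held this short motif on either strand, and 6.49% held CACGTG.

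JAZ1 (AT1G19180), JAZ5 (AT1G17380) and JAZ6 (AT1G72450) fell in 35S:CO, and all are genes known to respond to jasmonate. JAZ6 was at 32.1, 26.2 and 56.2 CPM in Col-0, 13.5, 15.9 and 15.9 CPM in 35S:CO and 34.5, 22.9 and 28.1 CPM in SUC2:CO. All 35S:CO samples lay below the lowest wild-type sample, and JAZ6 fell by a log2 change of -1.34 ± 0.26 (SE, adjusted p 0.0081 by edgeR). This call held with each library left out. JAZ6 was also lower than in SUC2:CO, by a log2 change of -0.92 ± 0.26 (SE, adjusted p 0.033 by edgeR), but that difference was lost without any single 35S:CO or SUC2:CO library (edgeR adjusted p 0.054 to 0.13).

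JAZ1 was at 23.3, 13.9 and 27.3 CPM in Col-0, 13.7, 10.1 and 8.53 CPM in 35S:CO and 13.5, 8.52 and 8.80 CPM in SUC2:CO. Wild-type replicate 2 was close to the highest samples of both lines, and the other wild-type samples were well above them. JAZ1 fell by a log2 change of -1.0004 ± 0.27 (SE, adjusted p 0.038 by edgeR) in 35S:CO and by a log2 change of -1.07 ± 0.27 (SE, adjusted p 0.014 by edgeR) in SUC2:CO. The first call was lost without 35S:CO replicate 2 or 3, Col-0 replicate 1 or 3, or SUC2:CO replicate 2 or 3 (edgeR adjusted p 0.067 to 0.15), and the second without SUC2:CO replicate 2 or 3 (edgeR adjusted p 0.060 and 0.064). JAZ5 was at 4.01, 1.54 and 4.14 CPM in Col-0, 0.592, 0.899 and 0.875 CPM in 35S:CO and 1.55, 0.444 and 0.651 CPM in SUC2:CO. It fell by a log2 change of -2.03 ± 0.50 (SE, adjusted p 0.026 by edgeR) in 35S:CO and by a log2 change of -1.87 ± 0.49 (SE, adjusted p 0.016 by edgeR) in SUC2:CO, where 1 sample overlapped wild type.

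The JAZ5 call in 35S:CO was lost without 35S:CO replicate 1, 2 or 3 or Col-0 replicate 1 or 3 (edgeR adjusted p 0.052 to 0.091). In SUC2:CO the JAZ5 call was lost without Col-0 replicate 1 or SUC2:CO replicate 2 or 3 (edgeR adjusted p 0.055 to 0.073). Without SUC2:CO replicate 1 it was larger, at -2.55 log2 units (edgeR adjusted p 0.0075). JAZ10 (AT5G13220), a repressor that restrains jasmonate responses after induction, was at 2.80, 1.12 and 4.42 CPM in Col-0, 0.986, 0.977 and 1.57 CPM in 35S:CO and 0.340, 0.485 and 0.574 CPM in SUC2:CO. It fell in SUC2:CO by a log2 change of -2.57 ± 0.49 (SE, adjusted p 0.0037 by edgeR), with no overlap and in all 18 other settings. In 35S:CO the log2 change was -1.24 ± 0.45 (SE, adjusted p 0.10 by edgeR), with overlapping samples, and it passed without Col-0 replicate 2 (edgeR adjusted p 0.020). JAZ10 overlaps a gene on the opposite strand.

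JAZ7 (AT2G34600) and JAZ8 (AT1G30135), small repressor genes that are also induced by jasmonate, had reads almost wholly in wild type. JAZ7 had 55, 8 and 25 reads in Col-0, 1, 0 and 0 in 35S:CO and 1, 0 and 1 in SUC2:CO. The summed wild-type level was 87.0 times that of 35S:CO (95% exact interval 15.2 to 3480.0) and 42.9 times that of SUC2:CO (11.5 to 360.0), intervals that cover counting error only. The low-count filter left it out of the main test. Without the filter it passed against Col-0 for both lines (edgeR adjusted p 0.0028 and 0.0020), as it did by DESeq2 (DESeq2 adjusted p 0.00031 and 0.00040). JAZ8 had 4, 2 and 12 reads in Col-0, 0, 1 and 0 in 35S:CO and 1, 0 and 1 in SUC2:CO. The summed wild-type level was 17.8 times that of 35S:CO (95% exact interval 2.81 to 742) and 8.78 times that of SUC2:CO (2.1 to 78.0). Its change did not pass without the filter (edgeR adjusted p 0.11 and 0.099).

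The JAZ7 promoter is shown for its G-box. It comprises the 250 bases before the start on chromosome 2 (chr2:14572780-14573029, plus strand), with CACGTG, in capitals, beginning 34 bases before the start.
JAZ7: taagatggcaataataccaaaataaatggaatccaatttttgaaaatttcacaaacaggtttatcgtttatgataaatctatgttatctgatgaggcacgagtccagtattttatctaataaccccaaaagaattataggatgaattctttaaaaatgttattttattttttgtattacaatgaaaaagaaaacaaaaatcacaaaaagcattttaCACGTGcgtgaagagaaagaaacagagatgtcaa
JAZ8 also held CACGTG, 10 bases before its start. Among the 36 members, 5 windows (13.9%) held the G-box and 13 (36.1%) held CCACA or TGTGG. The other G-box windows were those of AOS, JAZ2 (AT1G74950) and JAZ3 (AT3G17860). JAZ1, JAZ5, JAZ6, LOX3, OPR3 and CYP94C1, which fell in 35S:CO, held neither motif in this window, which says nothing of sites farther away. CCACA or TGTGG also lay before LOX2, LOX4, AOC1, AOC4, JAR1, JAZ3, JAZ12 and VSP1, which did not pass in 35S:CO in the main fit. Among those, LOX2, AOC4, JAR1 and JAZ12 rose in SUC2:CO. The other members that rose there, LOX3, LOX6, OPR3, MYC3 and MYC4, held neither motif. Binding of CO was not tested.

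Of the remaining repressor genes, JAZ2 was at 26.3, 27.3 and 34.4 CPM in Col-0, 27.4, 31.2 and 31.1 CPM in 35S:CO and 19.8, 21.6 and 23.8 CPM in SUC2:CO. It fell in SUC2:CO by a log2 change of -0.43 ± 0.12 (SE, adjusted p 0.023 by edgeR) and overlapped wild type in 35S:CO. The JAZ2 call was lost without Col-0 replicate 3 or SUC2:CO replicate 1 or 2 (edgeR adjusted p 0.072 to 0.078). JAZ12 was at 46.0, 52.4 and 47.8 CPM in Col-0, 51.3, 51.8 and 44.1 CPM in 35S:CO and 69.1, 70.1 and 74.8 CPM in SUC2:CO, and rose in SUC2:CO by 0.55 ± 0.09 log2 units (SE, adjusted p 0.0021 by edgeR). It overlaps a gene on the opposite strand. JAZ11 (AT3G43440) passed in no comparison, and neither did JAZ3 in the fit of all samples. JAZ3 was at 16.8, 16.2 and 12.4 CPM in Col-0, 13.1, 10.7 and 6.75 CPM in 35S:CO and 12.7, 13.8 and 16.8 CPM in SUC2:CO, with a log2 change of -0.57 ± 0.22 (SE, adjusted p 0.13 by edgeR) in 35S:CO. In a model of 35S:CO and Col-0 alone that took the replicate number as a block, JAZ3 passed (-0.57 log2 units, edgeR adjusted p 0.019), and it was lower in all 3 pairs. JAZ4 (AT1G48500) had 0 to 10 reads per library.

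Wild-type replicate 2 was low for many of these genes. It held the lowest Col-0 level for 9 of the 12 JAZ genes, and replicate 3 held the highest for 9 of 12. Over all tested genes those shares were 34.5% and 29.9%. Without Col-0 replicate 2, 15 members changed in 35S:CO and 18 in SUC2:CO. Without Col-0 replicate 3 the counts were 7 and 14.

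**Figure D4:**
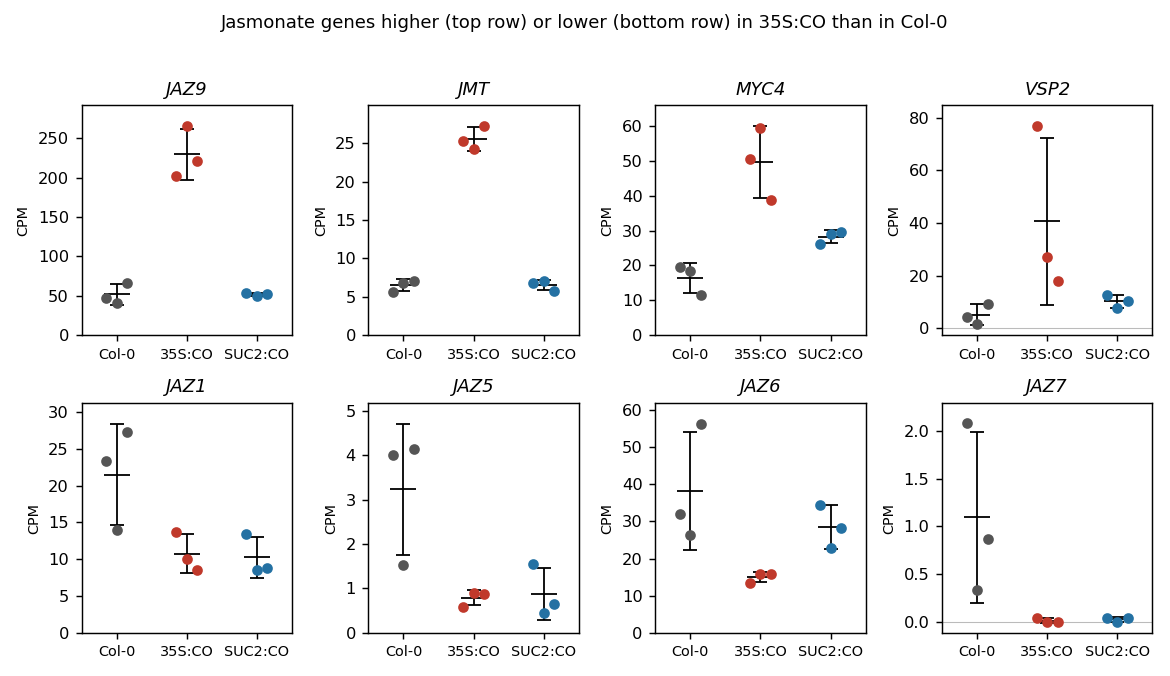
CPM (y axis) of 8 jasmonate genes in the 3 samples of each genotype (dots), with mean and SD (bars). In the top row every 35S:CO sample lies above every Col-0 sample; in the bottom row every 35S:CO sample lies below, and the Col-0 samples spread widely, JAZ7 having too few reads for the main test.

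The MYC factors activate jasmonate-responsive genes, and MYC4 (AT4G17880) rose in both lines. It was at 19.4, 18.4 and 11.5 CPM in Col-0, 50.6, 59.4 and 38.9 CPM in 35S:CO and 26.1, 29.0 and 29.5 CPM in SUC2:CO. The 3 genotypes did not overlap, with 35S:CO highest. MYC4 rose by 1.59 ± 0.20 log2 units (SE, adjusted p 0.00060 by edgeR) in 35S:CO and by 0.78 ± 0.20 log2 units (SE, adjusted p 0.015 by edgeR) in SUC2:CO, and both calls held in all 18 other settings. The 35S:CO level was above that of SUC2:CO by 0.81 ± 0.20 log2 units (SE, adjusted p 0.018 by edgeR), which was lost without SUC2:CO replicate 1 (edgeR adjusted p 0.064).

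MYC2 (AT1G32640), the best-studied of these factors, was at 28.3, 22.7 and 32.8 CPM in Col-0, 43.0, 46.6 and 24.4 CPM in 35S:CO and 32.8, 26.7 and 31.3 CPM in SUC2:CO. Replicate 3 of 35S:CO was inside the wild-type range and the other replicates of that line above it. The log2 change in 35S:CO was 0.44 ± 0.22 (SE, adjusted p 0.23 by edgeR), and without 35S:CO replicate 3 it was 0.68 (edgeR adjusted p 0.022). The MYC2 locus overlaps a gene on the opposite strand. MYC3 (AT5G46760) was at 38.5, 47.9 and 36.1 CPM in Col-0, 39.5, 47.1 and 39.7 CPM in 35S:CO and 61.7, 55.3 and 63.9 CPM in SUC2:CO. It rose in SUC2:CO by 0.56 ± 0.12 log2 units (SE, adjusted p 0.0071 by edgeR), and differed between the lines by -0.52 ± 0.12 log2 units (SE, adjusted p 0.017 by edgeR). That difference between lines was lost without 35S:CO replicate 1 or 3 or SUC2:CO replicate 1 or 3 (edgeR adjusted p 0.052 to 0.083).

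The MYC4 promoter, the 250 bases before its start on chromosome 4 (chr4:9935686-9935935, minus strand), held neither motif and so has no capitals.
MYC4: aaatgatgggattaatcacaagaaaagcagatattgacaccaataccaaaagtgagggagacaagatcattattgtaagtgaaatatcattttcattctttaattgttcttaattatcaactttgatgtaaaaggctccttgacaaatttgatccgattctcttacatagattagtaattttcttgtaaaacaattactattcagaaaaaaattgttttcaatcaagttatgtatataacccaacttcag

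VSP1 (AT5G24780) and VSP2 (AT5G24770) encode vegetative storage proteins, long used as markers of the MYC-dependent wound response. VSP2 was at 4.50, 1.70 and 9.43 CPM in Col-0, 76.9, 27.0 and 17.9 CPM in 35S:CO and 12.7, 7.75 and 10.5 CPM in SUC2:CO. Every 35S:CO sample was above every other sample, but replicate 1 was far above replicates 2 and 3. VSP2 rose by 2.94 ± 0.62 log2 units (SE, adjusted p 0.013 by edgeR) in 35S:CO. Without 35S:CO replicate 1 the rise was 2.11 log2 units (edgeR adjusted p 0.034), and without Col-0 replicate 3 it was 3.69 (edgeR adjusted p 0.0084). It was higher in level than SUC2:CO, by 1.97 ± 0.59 log2 units (SE, adjusted p 0.041 by edgeR), which was lost without 35S:CO replicate 1 (1.15 log2 units, edgeR adjusted p 0.17) or any single SUC2:CO library (edgeR adjusted p 0.084 to 0.13). In SUC2:CO against Col-0 the log2 change was 0.97 ± 0.61 (SE, adjusted p 0.24 by edgeR).

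VSP1 had 19, 53 and 80 reads in Col-0, 310, 37 and 11 in 35S:CO and 53, 9 and 17 in SUC2:CO. Replicate 1 of 35S:CO held most of the reads of that line, and no comparison passed, with a log2 change of 1.29 ± 1.00 (SE, adjusted p 0.46 by edgeR) in 35S:CO, which without that replicate was -1.03 (edgeR adjusted p 0.49). The same replicate was highest for VSP2, and held the highest level within 35S:CO of 6 of the 7 touch genes, against 29.0% of all tested genes. The exception was TCH3, the only touch gene that passed in that line against Col-0. In SUC2:CO, replicate 2 was highest for 5 of the 6 touch genes with reads but lowest for VSP1 and VSP2. The part of handling was not tested. VSP1 and VSP2 are related genes near each other on chromosome 5, so the split of reads between them is uncertain. The VSP2 promoter (chr5:8502225-8502474, minus strand) held TGTGG, in capitals, 127 bases before the start.
VSP2: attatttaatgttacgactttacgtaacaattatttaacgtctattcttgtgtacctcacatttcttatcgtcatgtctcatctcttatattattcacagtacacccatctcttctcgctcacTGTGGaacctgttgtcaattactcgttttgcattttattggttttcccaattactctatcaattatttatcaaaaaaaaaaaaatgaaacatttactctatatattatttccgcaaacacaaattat

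JMT (AT1G19640) encodes the methyltransferase that turns jasmonic acid into volatile methyl jasmonate. It was at 5.60, 6.81 and 7.06 CPM in Col-0, 25.3, 24.2 and 27.2 CPM in 35S:CO and 6.73, 7.03 and 5.74 CPM in SUC2:CO. The 35S:CO samples were tightly grouped and far above the others, and the SUC2:CO samples sat across the wild-type range. JMT rose in 35S:CO by 1.98 ± 0.12 log2 units (SE, adjusted p 4.4e-06 by edgeR), and was higher in level than SUC2:CO, by 1.98 ± 0.13 log2 units (SE, adjusted p 6.4e-06 by edgeR). As for JAZ9, both calls held in all 18 other settings. In SUC2:CO against Col-0 the edgeR adjusted p was 0.99.

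The JMT promoter, the 250 bases before its start on chromosome 1 (chr1:6791920-6792169, minus strand), is shown beside that of JAZ9, since both genes rose in 35S:CO and not detectably in SUC2:CO. It held TGTGG, in capitals, 81 and 6 bases before the start.
JMT: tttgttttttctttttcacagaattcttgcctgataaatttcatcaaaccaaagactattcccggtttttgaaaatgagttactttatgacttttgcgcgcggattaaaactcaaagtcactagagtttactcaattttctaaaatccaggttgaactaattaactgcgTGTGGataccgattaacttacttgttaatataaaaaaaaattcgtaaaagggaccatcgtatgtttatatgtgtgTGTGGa

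CYP94C1 (AT2G27690) encodes a cytochrome P450 that oxidises and so inactivates the isoleucine conjugate. It had 22, 11 and 20 reads in Col-0, 6, 2 and 2 in 35S:CO and 7, 7 and 4 in SUC2:CO. Wild type was highest, with no overlap, at these low counts. CYP94C1 fell in 35S:CO by a log2 change of -2.33 ± 0.57 (SE, adjusted p 0.025 by edgeR). In SUC2:CO the log2 change was -1.49 ± 0.52 (SE, adjusted p 0.051 by edgeR), and it passed without 35S:CO replicate 1 or Col-0 replicate 2 (edgeR adjusted p 0.048 and 0.042). The call in 35S:CO was lost without 35S:CO replicate 2 or 3, Col-0 replicate 1 or 3, or SUC2:CO replicate 2 (edgeR adjusted p 0.050 to 0.12), and without 35S:CO replicate 1 the value was -3.03 log2 units (edgeR adjusted p 0.025). ST2A (AT5G07010), a sulfotransferase gene that acts on hydroxyjasmonate, had 5, 1 and 6 reads in Col-0, 0, 0 and 0 in 35S:CO and 0, 0 and 2 in SUC2:CO. CYP94B3 (AT3G48520), another P450 gene for inactivation of the conjugate, had at most 3 reads in any library.

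A further list of 45 pathway genes outside the 36 was also counted, and 31 of them were tested. In 35S:CO against Col-0, 1 was higher and 3 lower, or 12.9% of the 31, where 11.8% of all tested genes changed. In SUC2:CO, 8 were higher and 1 lower, or 29.0% of the 31, where 32.3% of all tested genes changed. Leaving out 35S:CO replicate 1 or Col-0 replicate 2 lowered the first count to 2. With the replicate number as a block in a model of 35S:CO and Col-0 alone, it was 6, with 2 higher and 4 lower. Besides JOX2, the genes that fell in 35S:CO in the main fit were ILL6 and JAM1, both named after their values were seen. ILL6 encodes an amidohydrolase that cleaves the isoleucine conjugate, and JAM1 a bHLH repressor of jasmonate responses. ILL6 was at 8.97, 8.93 and 11.5 CPM in Col-0, 6.43, 5.196 and 3.72 CPM in 35S:CO and 7.75, 9.17 and 9.65 CPM in SUC2:CO. It fell by a log2 change of -0.94 ± 0.20 (SE, adjusted p 0.014 by edgeR), a call lost without 35S:CO replicate 2 (edgeR adjusted p 0.058). JAM1 fell by a log2 change of -0.51 ± 0.14 (SE, adjusted p 0.041 by edgeR), a call lost with any library left out other than 35S:CO replicate 2 or Col-0 replicate 3 (edgeR adjusted p 0.060 to 0.11).

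JOX2 (AT5G05600) encodes an oxygenase that hydroxylates and so inactivates jasmonic acid. It was at 16.3, 10.01 and 22.0 CPM in Col-0, 2.80, 3.52 and 1.79 CPM in 35S:CO and 8.09, 4.40 and 5.93 CPM in SUC2:CO. All wild-type samples lay above all others. JOX2 fell by a log2 change of -2.58 ± 0.34 (SE, adjusted p 0.00080 by edgeR) in 35S:CO and by a log2 change of -1.39 ± 0.32 (SE, adjusted p 0.0088 by edgeR) in SUC2:CO, and both calls held in all 18 other settings. CORI3, a jasmonate-induced C-S lyase gene, moved the other way. It was the only one of 4 tested genes listed as MYC-dependent outputs that passed against Col-0 in either line. It was at 92.7, 149 and 238 CPM in Col-0, 325, 364 and 318 CPM in 35S:CO and 662, 543 and 562 CPM in SUC2:CO. CORI3 rose by 1.07 ± 0.27 log2 units (SE, adjusted p 0.028 by edgeR) in 35S:CO and by 1.88 ± 0.27 log2 units (SE, adjusted p 0.00097 by edgeR) in SUC2:CO. The first call was lost without 35S:CO replicate 1 or 2 or Col-0 replicate 2 (edgeR adjusted p 0.058 to 0.089), and the second held with each library left out.

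Of 14 further genes listed under synthesis, 13 were tested, and 7 rose in SUC2:CO, where 15.5% of all tested genes rose. These were OPR1, OPR2, LOX5 and the beta-oxidation genes ACX5, AIM1, MFP2 and KAT2, all but OPR2 named after their values were seen. LOX5, like LOX1, encodes a lipoxygenase that is not on the route to jasmonate. The LOX5 call, 0.40 ± 0.13 log2 units (SE, adjusted p 0.044 by edgeR), was lost with any single library of the 9 left out (edgeR adjusted p 0.053 to 0.16), and without the filter (edgeR adjusted p 0.084). OPR2, a relative of OPR3 whose product acts outside peroxisomes, was at 3.48, 5.19 and 6.09 CPM in Col-0, 5.13, 5.86 and 7.11 CPM in 35S:CO and 14.97, 13.3 and 12.5 CPM in SUC2:CO. It rose in SUC2:CO by 1.46 ± 0.20 log2 units (SE, adjusted p 0.00081 by edgeR), with 35S:CO overlapping wild type. OPR1 and OPR2 overlap on the same strand, so the split of reads between them is uncertain. MFP2 rose by 0.62 ± 0.11 log2 units (SE, adjusted p 0.0028 by edgeR), ACX5 by 0.59 ± 0.12 log2 units (SE, adjusted p 0.0045 by edgeR) and KAT2 by 0.45 ± 0.10 log2 units (SE, adjusted p 0.0078 by edgeR). In 35S:CO 0 of the 13 passed by edgeR and by limma-voom. There 2 had an unadjusted p under 0.05, and 1, ACX1, passed by DESeq2 (DESeq2 adjusted p 0.018) and with the replicate number as a block (edgeR adjusted p 0.030). Beta-oxidation also serves other fatty acids, so these genes are not particular to jasmonate.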

How the data were processed

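Per the labels' protocols, total RNA was prepared with the RNeasy Plant Mini Kit, and sequencing was strand-specific. The submitters' processing notes name FastQC, STAR, featureCounts and limma and the build TAIR10. The deposited values are counts, whole reads per gene without normalization, as the values themselves show. The annotation and the strand setting of counting are not given in the sources used here, so overlapping genes are uncertain.

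The tests used edgeR 4.0.16 (R 4.3.3). The filterByExpr function left 19149 of 32833 genes, library sizes were scaled by TMM, and a quasi-likelihood model of genotype was fitted to all 9 samples. F-tests were two-sided, with Benjamini-Hochberg adjustment over all tested genes of a comparison. SEs are the log2 change divided by the root of F. CPM used the TMM-scaled sum of the tested genes' counts. Exon lengths, gene starts and promoter windows came from the RefSeq annotation of TAIR10.1, matched by locus identifier. A count of 3 reads was the floor, 0.104 to 0.125 CPM, which covers counting error only.

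The 36 members, the lists and the alternatives were chosen with earlier results of these data known. All members are named. Other pathway genes are named by rule where they changed by at least 1 log2 unit, and those under it are said to be named after their values were seen. Alternatives were no filter, a minimum mean count of 10, scaling by RLE or by library totals, limma-voom (limma 3.58.1), DESeq2 1.42.0, a replicate-number block, models restricted to the genotypes compared (with and without that block), and omission of each sample. The edgeR and limma-voom fits were tested on simulated data. The same replicate numbers occur in each genotype. Between 35S:CO and Col-0, deviations from the genotype means of samples sharing a number correlated at 0.435, 0.302 and 0.248 across 19149 genes. The numbers were therefore treated as pairing these genotypes, but only in alternative fits. The main fit held no block and so ignored that pairing. For SUC2:CO with Col-0 the correlations were 0.119, 0.070 and -0.080, and those samples were not treated as paired. Between 35S:CO and SUC2:CO they were -0.044, 0.046 and -0.113, and these lines were not treated as paired either. The labels do not say what the numbers mark. A planned search of JAZ proteins for the degron motif was not run.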

Additional observations from a re-analysis of the deposited data

Results flagged for a closer look

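LOX3 and OPR3 changed in opposite directions in the lines, each passing against Col-0 in both. They were flagged because both changes and the difference between the lines passed, so that difference is no separate evidence. The difference between the lines was tested directly in the same fit. For LOX3 it was -0.98 ± 0.09 log2 units (SE, adjusted p 6.4e-05 by edgeR), with 35S:CO at 21.0 ± 1.21 CPM (SD, n = 3) and SUC2:CO at 41.4 ± 2.49 CPM (SD, n = 3). For OPR3 it was -1.19 ± 0.15 log2 units (SE, adjusted p 0.00058 by edgeR), with 35S:CO at 24.96 ± 1.35 CPM (SD, n = 3) and SUC2:CO at 57.1 ± 4.74 CPM (SD, n = 3). All 3 samples of each line showed the direction for both genes. The lines differ in promoter, CO level, the HA tag and the co-10 allele, and these cannot be told apart.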

How the results depend on the processing

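JAZ9, JMT, MYC4, VSP2, LOX3 and JAZ6 passed in 35S:CO against Col-0 in all 18 other settings, and 8 of the 14 members called in SUC2:CO and 7 of the 15 that differed between the lines did so in theirs. Over the settings other than leaving out a library, the members called were 7 to 13 in 35S:CO, 14 to 16 in SUC2:CO and 13 to 17 between the lines. The 7 came from the model of 35S:CO and Col-0 alone without a block, in which JAZ1, OPR3 and CYP94C1 were not called. Leaving out each library gave 7 to 15, 11 to 18 and 8 to 16, the lowest being without SUC2:CO replicate 1 (8), 2 (9) or 3 (9). Fewer samples enter each such fit. The other pathway genes called were 2 to 5, 8 to 9 and 1 to 12 with a library left out, where the main counts were 4, 9 and 9. In models restricted to the genotypes compared, 1 of these was called in 35S:CO against Col-0, and the cause was not tested. With the replicate number as a block, 11, 14 and 17 members were called. For the paired genotypes, 35S:CO and Col-0, the block added LOX1 and changed no other member's call. For SUC2:CO the numbers were not treated as pairing. There the block changed no member's call against Col-0, and between the lines it added JAR1 and JAZ10. A block fitted to only the compared genotypes called 13, 15 and 16 and, between 35S:CO and Col-0, added LOX1, JAR1 and JAZ3. VSP1 rested on a single library. With each library left out, its log2 change in 35S:CO ran from -1.03 to 1.84 against Col-0 and from -0.11 to 3.19 against SUC2:CO, the lowest being without 35S:CO replicate 1. RLE scaling, library totals and DESeq2 left the median change of all genes within 0.1 log2 units of the main value. JAZ4, JAZ7, JAZ8, CYP94B3 and ST2A had too few reads for the main test, and a change in them was measurable only as far as the counts given.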

Other observations

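Jasmonate together with ethylene acts through ERF1 and ORA59 on defensin genes, a branch apart from the MYC genes above. PDF1.2a had 0, 16 and 23 reads in Col-0, 0, 272 and 12 in 35S:CO and 26, 17 and 5 in SUC2:CO, and PDF1.2c had 0, 12 and 10 reads in Col-0, 0, 221 and 0 in 35S:CO and 26, 8 and 2 in SUC2:CO. Replicate 2 of 35S:CO held nearly all the reads of its genotype, for PDF1.2b (0, 54 and 0 reads) as well. These genes are near-identical relatives, so reads may be split between them. The hevein-like gene PR4 had 62, 475 and 699 reads in Col-0, 59, 1574 and 244 in 35S:CO and 655, 343 and 651 in SUC2:CO, again with replicate 2 highest in 35S:CO. None of the 4 tested genes of this list passed in any comparison by edgeR, DESeq2 or limma-voom, and 0 had an unadjusted p under 0.05. With the replicate number as a block in a model of 35S:CO and Col-0 alone, ORA59 passed as lower (edgeR adjusted p 0.035). In the same 35S:CO replicate VSP2 was at 27.0 CPM, against 76.9 CPM in replicate 1, so the highest defensin and storage-protein levels were in different libraries.

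ORA59, which encodes an activator of the defensin genes, had 25, 16 and 186 reads in Col-0, 4, 14 and 43 in 35S:CO and 59, 13 and 37 in SUC2:CO. Its highest library was Col-0 replicate 3, where JAZ6, JAZ8 and JAZ10 were also highest. MYC5, a relative of MYC2 also listed as NIG1, had 11, 0 and 52 reads in Col-0, 50, 22 and 60 in 35S:CO and 1, 6 and 6 in SUC2:CO. The lines did not overlap, with 35S:CO above SUC2:CO by 3.28 ± 1.06 log2 units (SE, adjusted p 0.056 by edgeR). That difference passed by DESeq2 (DESeq2 adjusted p 0.0096), without the filter (edgeR adjusted p 0.035) and without Col-0 replicate 2 or 3 (edgeR adjusted p 0.013 and 0.024). The replicate numbers were not treated as pairing these lines, and with them as a block it also passed (edgeR adjusted p 0.033). Over the 18 other settings the adjusted p ran from 0.0044 to 0.15.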
